A study of Mus musculus with 36 samples.

Results

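The genes described here encode the proteins of desmosomes, and they are the cadherins Dsc3, Dsc2 and Dsg2, the linker desmoplakin (Dsp) and the plaque proteins plakoglobin (Jup), plakophilin-2 (Pkp2) and p0071 (Pkp4). They were followed in mesenteric lymph nodes of mice in which lymphotoxin signalling had been blocked. Members were all probe sets whose only gene symbol is 1 of these 7 genes. Array A holds 19 of them (of 22626 probe sets) and the second array, B, holds 1 (of 22511), and the platform annotation names 18193 genes by probe sets of their own. Dsc3 and Dsg2 were chosen by their values in these same samples, which were lower at days 1 to 3 than with PBS, and the other 5 genes because they belong to the same junction. The values of Dsc3 and Dsg2 against PBS, at the late days too since these use the same PBS samples, are therefore a description and carry no test.

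Groups are named by their labels. Mice received soluble lymphotoxin-beta receptor, a decoy that captures the receptor's ligands (sLTbetaR-Ig in the series title), for 1, 2, 3, 27 or 35 days, and a PBS group stands at day 0. Each of the 6 groups had 3 samples on array A and 3 on array B, 36 measurements in all. The labels used here state no strain, age, dose or schedule, and nothing says that replicates were separate animals. The p-values then reflect only how far replicate samples lay apart, which may be technical. None of the treated days, early or late, had a PBS group or control fusion protein of its own. Treatment, time and exposure to a foreign protein therefore cannot be told apart.

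A desmosome joins the intermediate filaments of neighbouring cells. Desmocollins (Dsc) and desmogleins (Dsg) cross the membrane and bind each other between cells, plakoglobin and plakophilins hold their tails, and desmoplakin ties this plaque to the filaments. Desmosomes are best known from epithelium and heart muscle, but in lymphoid follicles electron microscopy shows such junctions between the processes of follicular dendritic cells, and the endothelium of lymph node sinuses has junctions that contain plakoglobin and desmoplakin. Follicular dendritic cells depend on lymphotoxin made by B cells. Plakoglobin and p0071 also occur at adherens junctions, so they do not mark desmosomes alone.

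Of the 7 genes, Dsp, Dsc2 and Pkp2 could not be judged on these arrays. A probe set was tested when it lay above the median intensity of its table (286.7 on array A, 157.9 on array B) on at least 3 of the 18 arrays, and 7 of the 20 member probe sets, from 4 genes, did. The other 13 are too dim to judge, and 7 of these lay below the floor (the 20th percentile of the table, 122.6 on array A and 76.6 on array B) on all 18 arrays. Dsp had no usable probe set. Its 3 probe sets ran from 41.5 to 89.1 and never reached the floor. Dsc2, the desmocollin found in most desmosomes, was too dim on both of its probe sets, at 97.1 to 151 and at 8.53 to 32.2. Pkp2, the plakophilin of heart and simple epithelium, was too dim on all 4, with 1 of them below the floor throughout. A probe set below the filter gives no level of its transcript, which may still be present.

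Close to the filter, Dsc3 passed on array A with 3 arrays above the median (1 PBS and 2 day 35 samples) and 1 probe set of Dsg2 with 4, while probe set 1429183_at of Pkp2 missed it with 1. Probe sets of Dsc3 and Dsg2 that passed mainly through PBS and day 35 samples had to be lower elsewhere, so the number that passed says nothing about the family.

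**Figure D1:**
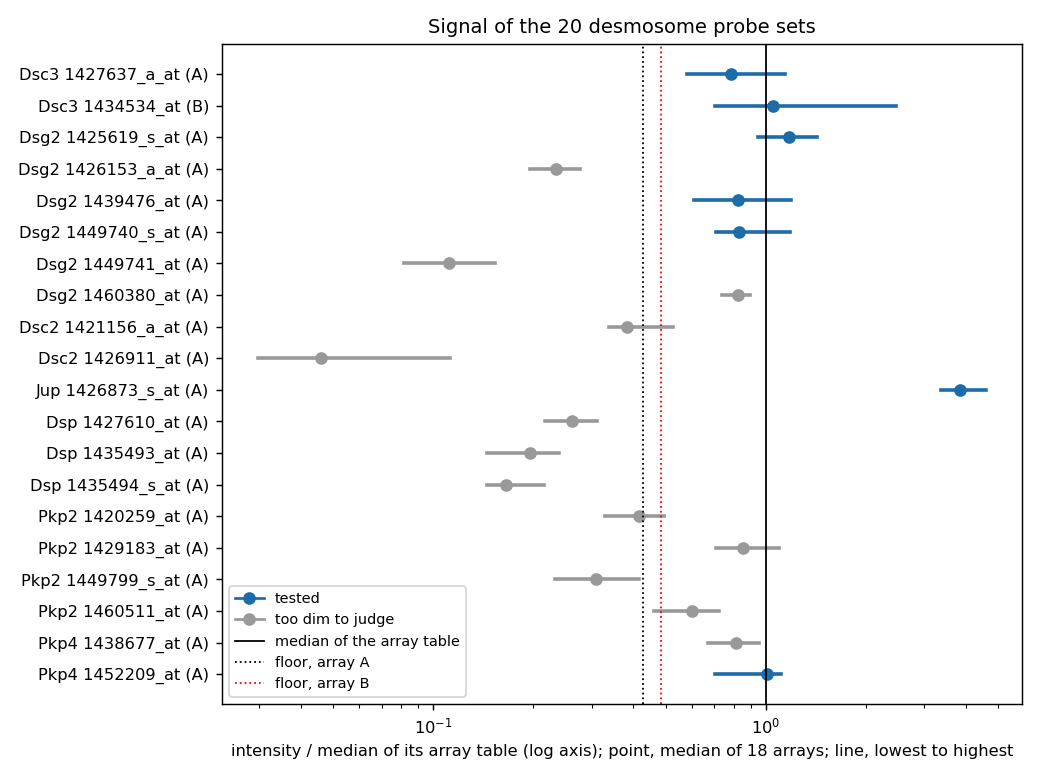
Signal of the 20 member probe sets, as intensity divided by the median of the probe set's own array table on a log axis. Points give the median of 18 arrays, lines run from the lowest to the highest array, blue marks the 7 tested probe sets and grey the 13 too dim to judge, and dotted lines mark the floors. All 3 Dsp probe sets stay left of the floor.

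Dsc3, a desmocollin known mainly from the basal layer of stratified epithelium, had the lowest values within days of treatment. Its array B probe set 1434534_at read 315, 389 and 301 in the 3 PBS samples. It read 158, 142 and 111 at day 1, then 121, 123 and 125 at day 2 and 139, 126 and 115 at day 3. All 9 early samples lay below all PBS samples, and the early days overlapped one another. At day 27 it read 195, 173 and 203, above every early sample and below every PBS sample. At day 35 it read 243, 349.7 and 238, of which 1 lay within the PBS range and the others below it.

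In means, Dsc3 on array B stood at 137 ± 24.2 at day 1 against 335 ± 47.3 in PBS samples (SD, n = 3 each), or 40.9% of PBS. It stood at 36.7% at day 2, 37.8% at day 3, 56.9% at day 27 and 82.6% at day 35. The fitted log2 changes against PBS were -1.30, -1.44, -1.40, -0.81 and -0.29 on the 5 days (SE 0.15 each). At each of days 1, 2 and 3 this was the lowest log2 change of the 12516 probe sets tested on array B, which is the pattern it was picked for.

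The array A probe set 1427637_a_at of Dsc3 followed a similar course over a smaller range, apart from day 2. It read 328, 279.5 and 277 in PBS samples, 182, 183 and 204 at day 1, 212, 218 and 213 at day 2, and 181, 198 and 166 at day 3. All 9 early samples were again below all PBS samples. It read 233, 268 and 235 at day 27, still below PBS, and 308, 329 and 286 at day 35, inside or just above the PBS range. The log2 changes were -0.64, -0.46, -0.70, -0.27 and 0.06 (SE 0.096 each).

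**Figure D2:**
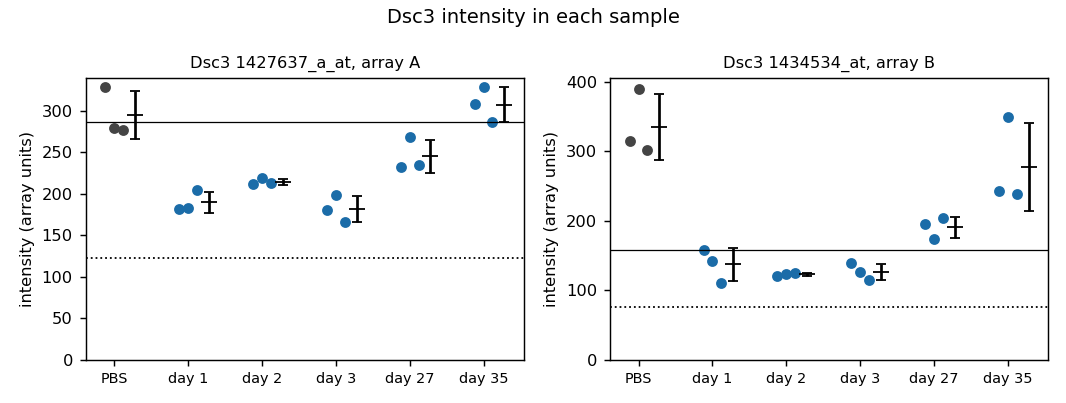
Dsc3 intensity (array units, linear axes from 0) in each of the 18 samples of array A (left) and array B (right), by group. Points are samples, bars the mean ± SD (n = 3), the solid line the table's median and the dotted line the floor. Days 1 to 3 lie below PBS and above the floor on both arrays, and day 27 lies between days 1 to 3 and PBS.

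Dsc3 differed little between day 1 and day 3, while day 2 differed between the arrays. On array A all day 2 samples (212 to 218) lay above those of day 1 (182 to 204) and day 3 (166 to 198). On array B the early days overlapped. The log2 difference of day 3 minus day 1 was -0.10 on array B (95% confidence interval -0.41 to 0.20) and -0.06 on array A (-0.26 to 0.14). Day 35 and day 27 samples did not enter the choice of Dsc3. On array B its probe set was above the median on all 6 of these samples, and the log2 difference of day 35 minus day 27 was 0.52 (SE 0.15, interval 0.21 to 0.83, higher in 3 of 3 day 35 samples than in any day 27 sample). It did not pass limma's test over all probe sets (adjusted p = 0.99999, unadjusted p = 0.0022). No probe set of either table passed in that contrast, while 815 probe sets (array A) and 354 (array B) had an unadjusted p under 0.05. On array A the difference was 0.33 (3 of 3 also higher). There the probe set had met the filter only through 1 PBS and 2 day 35 samples, which favours a high day 35, so this value is a description with no test.

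Dsg2, the desmoglein of simple epithelium and heart, had 6 probe sets that differed in their course. Probe set 1439476_at read 314, 340.3 and 331 in PBS samples, 260.2, 223 and 247 at day 1, 175, 197 and 222 at day 2 and 227, 212 and 209 at day 3. Every early sample lay below every PBS sample. It read 208, 222 and 269 at day 27, below PBS as well. At day 35 it read 309, 312 and 278, again below every PBS sample. In means it stood at 60.2% of PBS at day 2, 71% at day 27 and 91.3% at day 35, and the 5 log2 changes were -0.43, -0.74, -0.60, -0.50 and -0.13 (SE 0.1 each).

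Probe set 1449740_s_at of Dsg2 read 317, 316 and 242 in PBS samples, 263, 266 and 226 at day 1, 220.3, 252 and 228 at day 2 and 217, 226 and 203 at day 3. It read 232, 235 and 275 at day 27 and 288, 339 and 229 at day 35. Day 3 was the only day without overlap with PBS, since the third PBS sample lay within the range of the other days. Its log2 changes were -0.21, -0.31, -0.43, -0.23 and -0.04 (SE 0.13 each).

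Probe set 1425619_s_at, the brightest of the 6, read 342, 368 and 302 in PBS samples, 351, 289.7 and 356 at day 1, 303, 334 and 293 at day 2 and 324, 303 and 272 at day 3. It read 316, 365 and 363 at day 27 and 408, 352 and 338 at day 35. It overlapped PBS on all 5 days, with log2 changes of -0.02, -0.12, -0.17, 0.05 and 0.12 (SE 0.1 each). The mean log2 ratio of 1425619_s_at to 1439476_at on the same arrays was 0.03 ± 0.15 in PBS samples (SD, n = 3 each). It was 0.45, 0.65, 0.47, 0.58 and 0.29 on the 5 days (SD 0.075 to 0.22). The PBS and early ratios use samples by which Dsg2 was chosen, so they are a description with no test. Of the remaining 3 probe sets, 1460380_at ran from 211 to 256 on the 18 arrays without rising above the median, and 2 stayed below the floor. The names ending in s_at mark probe sets whose probes match more than 1 transcript. No source used here says which Dsg2 transcripts each probe set reads.

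The log2 difference of day 35 minus day 27 was 0.37 for 1439476_at, with 3 of 3 day 35 samples above every day 27 sample. It was 0.19 for 1449740_s_at and 0.07 for 1425619_s_at (interval -0.15 to 0.29). Since 1439476_at had met the filter through 3 PBS and 2 day 35 samples and 1449740_s_at through 2 of each, the first 2 differences are a description with no test.

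**Figure D3:**
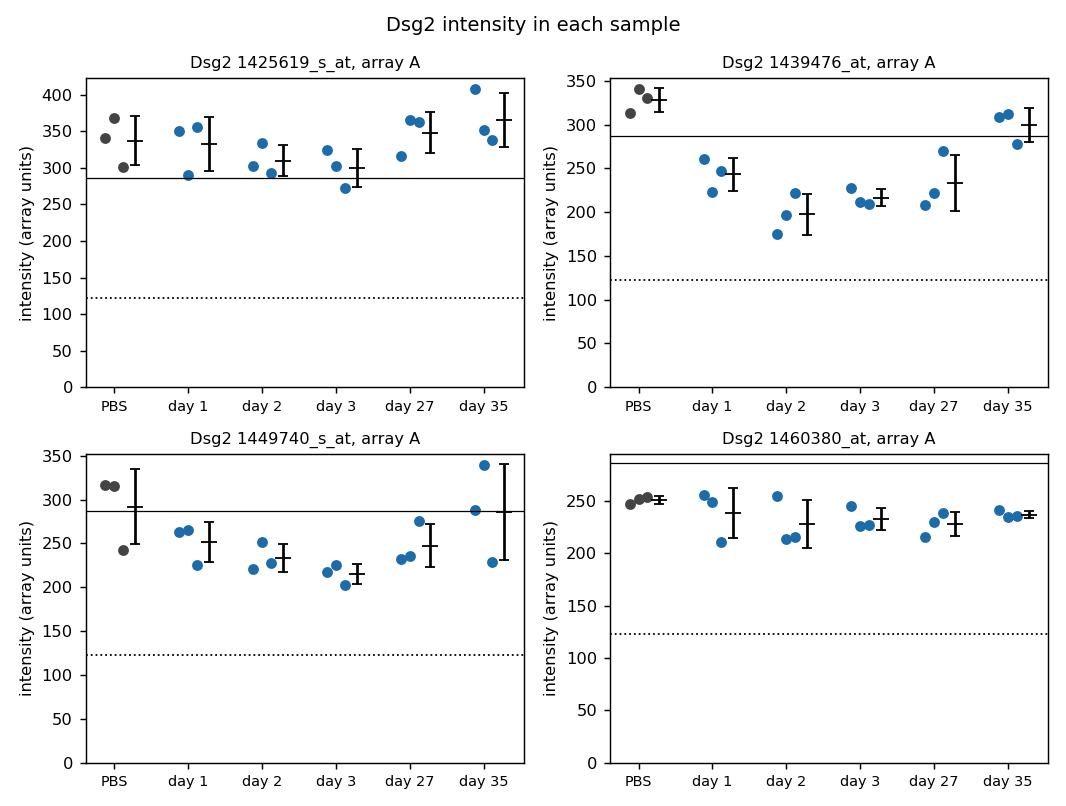
Dsg2 intensity (array units, linear axes from 0) in each sample of array A, for the 4 probe sets above the floor. Points are samples, bars the mean ± SD (n = 3), the solid line the table's median and the dotted line the floor. Probe set 1439476_at is lower at days 1 to 27 than in PBS samples, while 1425619_s_at overlaps PBS on each day.

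Plakoglobin, which binds the tails of both kinds of desmosomal cadherin and is a close relative of beta-catenin, had treated and PBS samples that overlapped throughout. Its only probe set 1426873_s_at was bright, with a median over the 18 arrays of 3.83 times the table's median. It read 1211, 1166 and 1038 in PBS samples, 1054, 967 and 1242 at day 1, 1203, 1015 and 1177 at day 2, and 1054, 1127 and 984 at day 3. It read 1031, 1194 and 1207 at day 27 and 1317, 1071 and 1024 at day 35. No day stood apart from PBS. The log2 changes ran from -0.11 at day 3 to 0.01 at day 27 (SE 0.11 each, limma adjusted p from 0.798 to 0.998). Over the 5 days the 95% confidence intervals reached from -0.34 to 0.24, which spans 0.79 to 1.18 times the PBS level.

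Pkp4, an armadillo protein of the plakophilin family, read 319, 261 and 216 on probe set 1452209_at in PBS samples, 278, 293 and 299 at day 1, 304, 297 and 282 at day 2 and 292, 300.2 and 259.7 at day 3. It read 279, 287 and 304 at day 27 and 270.3, 294 and 202 at day 35. All samples of days 1 to 27 lay within the PBS range, and those of day 35 overlapped it. Its log2 changes were 0.15, 0.17, 0.11, 0.15 and -0.05 (SE 0.13 each, limma adjusted p from 0.565 to 0.998), with intervals between -0.33 and 0.44. Its other probe set, 1438677_at, was too dim to judge and ran from 192 to 274.

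**Figure D4:**
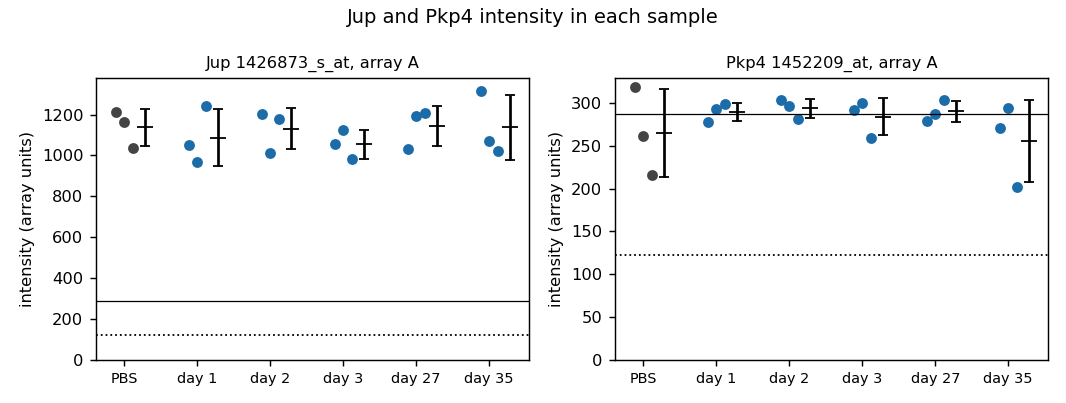
Jup (left) and Pkp4 (right) intensity (array units, linear axes from 0) in each sample of array A. Points are samples, bars the mean ± SD (n = 3), the solid line the table's median and the dotted line the floor. In both genes the samples of each treated day overlap the PBS samples.

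Counted over the members, limma calls (adjusted p under 0.05 over all probe sets of a table) were few and all lower against PBS. At day 1, Dsc3 was called among the 6 tested on array A, where 0.0164% of all tested probe sets were called lower, and on array B, where 0.00799% were. At day 2, 1439476_at of Dsg2 was called on array A (0.0899% of all called lower) and Dsc3 on array B (0.024%). At day 3, both genes were called on array A (0.417%) and Dsc3 on array B (0.0719%). At day 27, 1439476_at was called on array A (2.6%) and Dsc3 on array B (0.328%). At day 35, 0 of the 7 were called, where 5.58% (array A) and 2.88% (array B) of all probe sets were called lower. At an unadjusted limma p under 0.05 there were 0 members, against 22.8% (array A) and 19.9% (array B) of all probe sets in either direction. Between days 3 and 1 none of the members was called, against 0.229% on array A and 0% on array B. Of the members, 0 had an unadjusted limma p under 0.05 there, against 7.81% (array A) and 4.71% (array B) of all probe sets. The rule used the early contrasts, so nothing is read from these counts.

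Several calls were lost with 1 sample fewer, while the change stayed similar in size. All are calls of Dsc3 or Dsg2 against PBS, which reuse samples of the choice. The limma adjusted p-values below are therefore a description of the fit and carry no test. The day 1 call of Dsc3 on array A ended with any 1 of the 3 PBS or 3 day 1 samples left out (log2 change -0.69 to -0.56, adjusted p from 0.056 to 0.25). The day 27 call of Dsc3 on array B ended with any except day 27 replicate 1 left out (-0.88 to -0.70, adjusted p up to 0.18). Those of 1439476_at ended without PBS replicate 2 or 3 and day 3 replicate 2 or 3 at day 3 (-0.64 to -0.58, up to 0.066), and without PBS replicate 2 or 3 or day 27 replicate 1 at day 27 (-0.61 to -0.43, up to 0.07). With the 3 samples of lowest weight on array A (day 3 replicate 3, day 27 replicate 2, day 35 replicate 3) left out, a setting chosen after seeing the data, the day 27 value of Dsc3 was -0.74 on array B (adjusted p = 0.077) and -0.33 on array A (0.029).

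**Figure D5:**
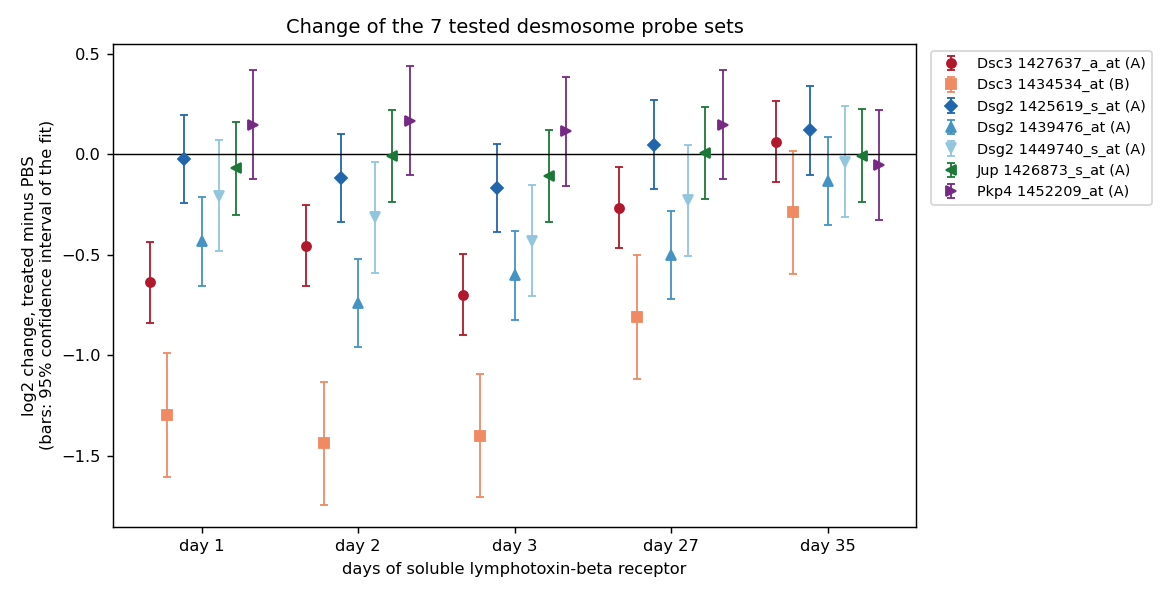
Log2 change against PBS (treated minus PBS) of the 7 tested member probe sets at each day of treatment, with 95% confidence intervals of the fit (3 samples per group). Dsc3 on array B lies lowest on each day, 1425619_s_at of Dsg2, Jup and Pkp4 include 0 on each day, and all 7 intervals include 0 at day 35.

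In the mouse genome (RefSeq, assembly GRCm38.p6) Dsc3 and Dsg2 are the outer genes of a run of 9 desmosomal cadherin genes on chromosome 18, with Dsc2 next to Dsc3. Of the 7 genes between them, 4 had a probe set of their own and 0 were bright enough to be tested. These were Dsc2, Dsc1 (highest intensity 129), Dsg1a (38.3) and Dsg1b (11.9), cadherins of skin except Dsc2. The other genes of the run, Dsg1c, Dsg4 and Dsg3, had no probe set that names them alone.

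Other genes of cell junctions gave few calls. Over the 5 days, 12.02% of all tests on array A and 10.7% on array B had an unadjusted p under 0.05, beside which the counts of the lists stand. Of 9 further desmosome genes (desmocollins, desmogleins, plakophilins and the membrane protein Perp), 2 were tested, Pkp1 and Pkp3, and 0 of 10 tests over the 5 days were called (0 at an unadjusted p under 0.05). Pkp3, a plakophilin of most epithelia, averaged 416 ± 14.6 at day 35 against 426 ± 13.9 in PBS samples, and Pkp1, a plakophilin of skin, 402 ± 82 against 405 ± 27.8 (SD, n = 3 each). Of 9 intermediate filament genes 3 were tested and 0 of 15 limma tests were called (2 at an unadjusted p under 0.05). The brightest probe set of vimentin (Vim), the filament of mesenchymal cells and leukocytes, changed by -0.02, -0.06, -0.08, -0.04 and -0.01 on the 5 days (SE 0.07 each). Desmin (Des), the muscle filament, stood between -0.24 and -0.08 on its brighter probe set and keratin 5 (Krt5) between 0.03 and 0.21. None of 10 tested tight junction genes was called on any day (limma, 6 of 50 tests at an unadjusted p under 0.05). Among them were F11r at 0.14 to 0.33, the endothelial claudin Cldn5 at 0.15 to 0.33 and Cldn3 at 0.07 to 0.15.

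Adherens junction genes held the only calls among these lists. Of 12 tested, each counted by its brightest probe set, 1 was higher and 1 lower at day 35 and 0 on the other days (11 of 60 tests at an unadjusted p under 0.05), where 7.36% (array A) and 3.59% (array B) of all probe sets were called. Beta-catenin (Ctnnb1), which shares its cadherin partners with plakoglobin, averaged 2126 ± 159 at day 35 against 1639 ± 116 in PBS samples (SD, n = 3 each) on its brightest probe set, a log2 change of 0.38 (SE 0.11, limma adjusted p = 0.0498). Its 2 other probe sets stood at 0.13 and 0.35 and were not called, and its call ended with any 1 of the 6 samples left out (adjusted p up to 0.2) and under 4 other settings. Afadin (Afdn), which links nectins to actin, fell at day 35 on array B (186 ± 16 against 232 ± 16.6, log2 change -0.32, SE 0.082, adjusted p = 0.039). That call ended without PBS replicate 1 or 2 or day 35 replicate 1 or 2 (up to 0.18). Outside these counts, a dimmer probe set of the endothelial cadherin Cdh5 was lower at day 35 (-0.37, SE 0.11, limma adjusted p = 0.047). This dimmer probe set was also lower late against early (-0.29, SE 0.07, limma adjusted p = 0.0096). The brightest probe set of Cdh5 went the other way at day 35 (0.21, SE 0.088, limma adjusted p = 0.16). It was also higher late against early (0.12, SE 0.056, limma adjusted p = 0.16), with no call in either contrast. Why the probe sets of Cdh5 differed was not tested.

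The mean of days 27 and 35 (late) was also set against that of days 1, 2 and 3 (early), where 4.98% (array A) and 0.24% (array B) of probe sets were called higher. Of the 12 adherens genes 3 were higher late, Ctnnb1 (0.34, SE 0.073, limma adjusted p = 0.0034), the actin linker vinculin (Vcl, 0.34, SE 0.07, adjusted p = 0.0024) and the adhesion molecule Nectin3 (0.20, SE 0.067, adjusted p = 0.0496). The other probe sets of Ctnnb1 stood at 0.09 and 0.20 and were not called. The call of Nectin3 ended with 10 of 15 samples left out in turn (adjusted p up to 0.11) and under 6 other settings. Dsc3 and 1439476_at of Dsg2 were higher late than early, by 0.49 on array A and 0.83 on array B for Dsc3 and 0.27 for 1439476_at. The early samples entered the choice of both genes, so these values are given as a description. Jup stood at 0.06 (interval -0.09 to 0.21) and Pkp4 at -0.10 (-0.27 to 0.08).

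Markers of other cells of the node were read in the same samples. A fall of a transcript in whole tissue can come from fewer cells of a type or from less RNA per cell, and these arrays cannot tell them apart. Of 10 follicular dendritic cell genes 9 were tested and 0, 4, 4, 4 and 3 were called lower on the 5 days (limma). Of all probe sets on array A, 0.0164%, 0.0899%, 0.417%, 2.6% and 5.58% were called lower. At day 1, 6 of the 9 had an unadjusted p under 0.05, against 3.36% of all probe sets on array A. Their summed intensity on array A (9 genes, brightest probe set each) ran from 13143 to 14509.7 in PBS samples, 12132 to 12303 at day 1, 10408 to 10710.4 at day 2 and 9799.8 to 10324.5 at day 3. It ran from 10855 to 12427 at day 27 and from 13047 to 14785 at day 35. This sum was below PBS at days 1 to 27 and overlapped PBS at day 35. Cxcl13, Il22ra2 and Madcam1 were still called lower at day 35. The part of this list in the values of Dsc3 and Dsg2 was not tested. None of the 10 genes was below the floor on all arrays, and Mfge8, Cxcl13, Madcam1 and Il22ra2 were the genes called at days 2, 3 and 27 by their brightest probe set. Other probe sets of Clu (days 3 and 27) and Fcer2a (day 3) were called lower too.

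High endothelial venule genes, with Madcam1 on both lists, summed to 8012 to 9581 in PBS samples, 3858 to 4502 at day 3 and 5458 to 6332 at day 35 (7 genes). This sum remained below PBS at day 35, and the sulphotransferase gene Chst4 of that list was below the floor throughout. Lymphatic endothelial genes, of which 7 of 8 were tested, had 0 calls in 35 tests over the 5 days (limma, 5 at an unadjusted p under 0.05), and their sum ran from 4219.8 to 4593 at day 3 and from 3926 to 4368 in PBS samples (6 genes). Fibroblastic reticular cell genes summed to 6258.6 to 6494.4 at day 3 and 6352.9 to 7215.7 at day 35, above the 4636.7 to 5225.7 of PBS samples (6 genes). Fat cell genes summed to 8477.5 to 11144.9 at day 35, below the 12749.2 to 14094.8 of PBS samples (5 genes, of which Cidec and Pck1 were called lower). Of 5 tested blood endothelial genes, Cd300lg was lower at days 3, 27 and 35 (-0.67, -0.73 and -1.09, SE 0.11 each, limma adjusted p = 0.032, 0.014 and 0.000185). Of all probe sets, 0.417%, 2.6% and 5.58% (array A) and 0.0719%, 0.328% and 2.88% (array B) were called lower on these days. At day 35, 7.36% (array A) and 3.59% (array B) were called in either direction. Of 4 tested genes of Langerhans and migratory dendritic cells, Ly75 was higher at day 35 (0.52, SE 0.13, limma adjusted p = 0.018). The part of these lists in the values of Dsc3 and Dsg2 was not tested either. Of 13 genes of epithelium, the tissue richest in desmosomes, 4 were tested and 0 of 20 tests were called (0 at an unadjusted p under 0.05). Their sum over 12 genes ran from 2043 to 2420.0 at day 3 and from 2072 to 2467 in PBS samples, overlapping on each day, and E-cadherin (Cdh1) was below the floor on all 18 arrays.

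Genes whose course was closest to each tested probe set of Dsc3 and Dsg2 were found by the root mean square difference of log2 intensity over the 6 group means, each probe set centred on its own mean. These means include the PBS and early values by which Dsc3 and Dsg2 were chosen. Low early values of the near genes can follow from that choice. The near genes are a description with no test, and a shared cell of origin was not tested. For Dsc3 on array A the closest was Serpina10, a secreted protease inhibitor (0.10, against a median of 0.30 over 11145 candidates), with changes of -0.47, -0.52, -0.54, -0.23 and -0.05 on the 5 days. The next were 2 probe sets of cyclin D1, Ccnd1 (0.13 and 0.14). For Dsc3 on array B no candidate came closer than 0.33 (median 0.56 over 8619), and the 3 nearest were the leptin receptor Lepr, the kinase Dclk1 and the glycosyltransferase Gcnt1. For 1439476_at of Dsg2 the nearest were Clu, a chaperone that follicular dendritic cells make in abundance (0.10 and 0.12 on 2 probe sets, against a median of 0.27), and Serpina10 (0.11). For 1449740_s_at of Dsg2 another probe set of Clu was nearest (0.05, against a median of 0.17), followed by Pde7a and Ippk. For 1425619_s_at, which moved little, Rabgap1, S1pr1 and Anxa8 were nearest (0.01, 0.01 and 0.02, against a median of 0.12).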

How the data were processed

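RNA of mesenteric lymph nodes was read on 2 oligonucleotide arrays, A and B. The authors deposited 1 linear intensity per probe set and array, with software, background correction and scaling not given in the sources used here. Array medians ran from 272.8 to 299.5 (array A) and 149.8 to 165.2 (array B), and no further scaling was applied. The 64 control probe sets of each table were left out. Genes were named from the platform annotation, from probe sets with 1 symbol.

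Values under a table's 20th percentile were set to that percentile before log2. Testing was limited to probe sets that exceeded the median of their table in 3 or more of 18 arrays (12231 for A, 12516 for B). The 2 tables were fitted apart with limma 3.58.1 in R 4.3.3 (lmFit, eBayes with trend, 6 groups, no covariate), two-sided, with Benjamini-Hochberg adjustment within table and contrast and calls at 0.05. The number of arrays limits the precision. The procedure was tested on simulated arrays.

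All member probe sets were named, with the listed junction genes called in any contrast or else the brightest 3 of a list, and the 3 nearest courses per probe set of Dsc3 and Dsg2. Members, lists and tests were chosen with earlier results of these data known. Same-numbered samples deviated together (correlation over 0.1 in all 3 pairs) only on array B for day 2 (0.10 to 0.38) and day 35 (0.23 to 0.49) against PBS. There a replicate block changed no call of a member and moved the calls over all probe sets to 10 and 1327, against 3 and 449 without it. The block also raised the calls over all probe sets of array B in other contrasts. They rose from 10 to 68 at day 3, from 41 to 220 at day 27 and from 208 to 483 for late against early. Alternatives covered scaling, floor, filter, variance trend, sample weights, block, samples in the fit and single samples left out.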

Additional observations from a re-analysis of the deposited data

Results flagged for a closer look

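The change against PBS differed between the late days (27 and 35) and the early days (1, 2 and 3) for Dsc3 on array A (0.49 on the log2 scale, SE 0.062), Dsc3 on array B (0.83, SE 0.094) and probe set 1439476_at of Dsg2 (0.27, SE 0.068), all late minus early. On array B every day 27 and day 35 sample of Dsc3 read higher than every early sample (173 to 349.7 against 111 to 158). Both genes were chosen for low values in the early samples, so these differences reuse the values of the choice. They are a description with no test. Groups of 3 were too small for a check of single outlying samples.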

How the results depend on the processing

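The count of called member probe sets was 2 at day 1 and fell to 1 with the filter asking for all arrays of 1 group (which drops Dsc3 on array A), with the floor at the 40th percentile, with only the groups compared, and with any 1 sample left out (1 to 1), and it was 3 under sample weights. At day 3 and for late against early it was 3, and 2 to 4 over the other settings. At day 2 it was 2, and 4 under sample weights. At day 27 it was 2, with 4 under sample weights, 1 with no filter, 1 with only the groups compared and 0 to 1 with single samples left out. For day 35 against day 27 it was 0, and 2 under sample weights, both on array A (both probe sets had met the filter through PBS and day 35 samples). The estimate of the sample weights converged on array A and stopped before converging on array B. With the replicate number as a block the 5 comparisons with PBS gave 2, 2, 3, 2 and 0 and the late against early one 3, as without the block. Where a call changed, the cause was not tested beyond fewer samples or probe sets in the fit. No called value changed sign. Over all probe sets of array A the calls at day 1, 2, 3, 27 and 35 numbered 2, 14, 68, 389 and 900, with lowest and highest counts over the settings other than single samples left out of 0 to 77, 13 to 536, 29 to 377, 113 to 2485 and 691 to 3046. Array B gave wide ranges as well. Dim signal limits Dsp, Dsc2 and Pkp2.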

Other observations

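Of the 13 probe sets too dim to judge, 4 had a day on which treated and PBS samples did not overlap, and they are named here because of these values. The share of all probe sets that did so is not given here, so nothing is read from this number. Probe set 1426911_at of Dsc2, the gene next to Dsc3, lay below the floor on all 18 arrays. It read 23.1, 19.9 and 21.4 in PBS samples, 15.8, 24.3 and 10.7 at day 1, 9.38, 10.3 and 11.1 at day 2 and 10.4, 8.53 and 12.5 at day 3. It read 11.1, 11.5 and 13.9 at day 27 and 14, 32.2 and 17.9 at day 35. The samples of days 2, 3 and 27 lay below all PBS samples, and those of days 1 and 35 overlapped PBS. The other Dsc2 probe set, 1421156_a_at, lay below PBS at day 1 and overlapped it on the other days. Probe set 1460380_at of Dsg2 lay below PBS at days 3, 27 and 35, and 1427610_at of Dsp above PBS at day 2. Signals below the floor have no reliable order.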
